A study of Mus musculus with 16 samples.

Results

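The pentose phosphate pathway enzymes examined here were 7 genes, G6pdx, Pgls, Pgd, Rpia, Rpe, Tkt and Taldo1, chosen by symbol from the 49585 Ensembl genes of the count tables. All 7 had a row in both tables and all 7 passed the filter on low counts in every comparison, with at least 1709 counts in any library. The data were RNA sequencing read counts from 16 libraries of neutrophils, the short-lived phagocytes that form in bone marrow, isolated by fluorescence-activated sorting from the bones of C57BL/6 mice aged 8 to 12 weeks. P2KO libraries came from mice with the oxygen sensor PHD2 (gene Egln1) labelled as deleted by Vav:cre (Vav:cre-PHD2f/f, replicates 1, 5, 6 and 9), and P2WT libraries from their wild-type controls (replicates 3, 4, 7 and 10). P2H2KO libraries came from mice with PHD2 and HIF2α (gene Epas1) labelled as deleted together (Vav:cre-PHD2/HIF2ff/ff, replicates 11, 12, 15 and 17), and P2H2WT libraries from the wild-type controls of that line (replicates 13, 14, 16 and 18). Vav:cre is active throughout blood-forming cells, so the labelled deletion is not restricted to neutrophils, and the labels do not say which alleles the wild-type mice carried. Each line was counted in its own table with its own controls, so line and table cannot be told apart.

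The pentose phosphate pathway branches from glycolysis at glucose 6-phosphate. Its oxidative branch makes NADPH, and its non-oxidative branch interconverts sugar phosphates between ribose 5-phosphate, the sugar of nucleotides, and the glycolytic intermediates fructose 6-phosphate and glyceraldehyde 3-phosphate. In neutrophils NADPH is the electron donor of the phagocyte oxidase that makes superoxide, and it also serves the glutathione and thioredoxin systems. PHD2 marks HIF subunits for degradation when oxygen is present, and HIF complexes are known activators of glycolytic genes.

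G6pdx encodes glucose 6-phosphate dehydrogenase, the entry enzyme and first source of NADPH (ENSMUSG00000031400, GRCm38 chrX:74409483-74429194, minus strand). Pgls encodes 6-phosphogluconolactonase, the hydrolase of the next step (ENSMUSG00000031807, chr8:71592176-71601092, plus strand). Pgd encodes 6-phosphogluconate dehydrogenase, the other NADPH-forming step, which releases ribulose 5-phosphate (ENSMUSG00000028961, chr4:149149991-149166771, minus strand). Rpia encodes ribose 5-phosphate isomerase (ENSMUSG00000053604, chr6:70765720-70792232, minus strand), and Rpe encodes the epimerase that makes xylulose 5-phosphate (ENSMUSG00000026005, chr1:66700831-66719805, plus strand). Tkt encodes transketolase, which moves 2-carbon units (ENSMUSG00000021957, chr14:30548359-30574720, plus strand). Taldo1 encodes transaldolase, which moves 3-carbon units (ENSMUSG00000025503, chr7:141392199-141402968, plus strand).

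The promoter windows of the 7 genes were searched for the core letters to which HIF complexes are known to bind, because the design compares mice that differ in a HIF regulator. The windows were the RefSeq promoter sequences of the GRCm38.p6 assembly, 250 bases before to 50 bases after each start, and the motifs were ACGTG and GCGTG on either strand. Of the 7 genes 6 had at least 1 match in any of their windows and Rpe had none. Of 32851 mouse promoter windows 43.8% had a match, which is a share of single windows and not of genes. A match in so common a motif describes the letters only. The matches read as follows, 5′ to 3′ on the gene's strand with 10 bases on either side, the motif or its reverse complement in capitals, followed by a match from Pfkl and one from Aldoc, glycolytic genes that were higher in both deficient groups.
G6pdx, 43 bases upstream: agtcaaagcaCACGCcctcttgcgt
G6pdx, 29 bases downstream: agatctgtgaACGTGtttggcagcg
Pgls, 205 bases upstream: ggccagcaagGCGTGtctcgcccag
Pgd, 40 bases upstream: agacccaataGCGTGgggcatcggc
Rpia, 74 bases upstream: ttcccagcaaCACGCatttagtaat
Tkt, 68 bases upstream: taaatgcgggGCGTGgccagaggcc
Taldo1, 80 bases upstream: gtgacacgggGCGTGgtctatggca
Taldo1, 24 bases downstream: tgtgggttagCACGCaccggctacc
Pfkl, 99 bases upstream: ttgtagactgGCGTGcgctccgcct
Aldoc, 50 bases upstream: acctctgaggGCGTGgccttaccct
These stretches lie at chrX:74428909-74428933 and chrX:74428837-74428861 (G6pdx), chr8:71591969-71591993 (Pgls), chr4:149166731-149166755 (Pgd), chr6:70792235-70792259 (Rpia), chr14:30549053-30549077 (Tkt), chr7:141392070-141392094 and chr7:141392174-141392198 (Taldo1), chr10:78009892-78009916 (Pfkl) and chr11:78323013-78323037 (Aldoc). Pgd has 2 annotated windows and the match is in 1 of them. Tpi1, another glycolytic gene that was higher in both deficient groups, had no match in its window.

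The libraries held 23450746 to 28601284 counts and 19611 to 20439 genes with at least 1 count. All 12 neutrophil markers were detected in every library and took 2.49% to 6.45% of the summed CPM (counts scaled to a common library size with TMM, the trimmed mean of M values). All 10 erythroid markers were detected as well and took 2.60% to 5.31%. By group medians the erythroid sum was above the neutrophil sum in P2KO (42043 against 31916 CPM), P2WT and P2H2WT, and below it in P2H2KO (40234 against 46687 CPM). Markers of immature, proliferating cells took 0.435% to 0.676%, and markers of mature neutrophils 0.236% to 0.743%. Monocyte and macrophage markers took 0.162% to 0.293%, B cell markers 0.0158% to 0.0503% and T and NK cell markers 0.00373% to 0.00676%, and no defining marker of these lists was at 0 in all libraries. The targeted genes did not separate the deficient groups from their own controls. Egln1 was at 49.5 ± 6.40 CPM in P2KO and 48.7 ± 2.21 in P2WT (SD, n = 4 each). It was at 53.2 ± 4.39 in P2H2KO and 52.2 ± 2.97 in P2H2WT. Epas1 was at 5.65 ± 2.17 in P2H2KO and 3.56 ± 1.02 in P2H2WT. Its estimate was thus higher and not lower in P2H2KO (log2 fold change 0.66, SE 0.29, edgeR unadjusted p = 0.0503). Epas1 did differ between the wild-type groups, at 8.70 to 11.3 CPM in P2WT and 2.55 to 4.97 in P2H2WT (log2 difference 1.49, SE 0.19, edgeR adjusted p = 0.00764). Counts over whole genes also take reads from outside the floxed exons, so these values do not check the labels. Nothing in the labels states that the libraries of a group came from separate animals, and the p-values measure the spread between libraries.

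Transcripts of the pathway were abundant and unequal. Per kilobase of merged exons, Taldo1 was the highest at 302 CPM (mean of 16 libraries), followed by Tkt at 174, G6pdx at 167 and Pgd at 107. Rpe at 26.4, Pgls at 22.9 and Rpia at 22.7 formed a lower tier. Taldo1 was above Tkt in 16 of 16 libraries with no overlap of their ranges, and Pgd was above Rpe in the same way. Tkt exceeded G6pdx in 11 of 16 libraries and Pgls exceeded Rpia in 11 of 16, with overlapping ranges, so neither pair was separated. With the length of a single coding transcript in place of merged exons, Taldo1 at 481 and Tkt at 397 stayed first and second, Pgd at 310 passed G6pdx at 194, and Rpe at 30.3 fell below Pgls at 96.6 and Rpia at 66.5. The upper tier of 4 genes and the lower tier of 3 genes were the same by both lengths.

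The members also differed in how far they varied between libraries. Pgd spanned a 2.17-fold range over the 16 libraries and G6pdx 2.06-fold. Tkt and Taldo1 spanned 1.58-fold and 1.56-fold, Rpe 1.45-fold, Pgls 1.28-fold and Rpia 1.16-fold. The ratio of Pgd to G6pdx CPM nevertheless stayed between 1.25 and 1.41 (1.34 ± 0.0368, SD, n = 16). The ratio of Tkt to Taldo1 CPM stayed between 1.81 and 2.10 (1.95 ± 0.0781, SD, n = 16). The oxidative branch (G6pdx, Pgls and Pgd) held 32.0% to 40.3% of the summed level per kilobase of the 7 genes, 34.8% ± 3.75 in P2KO, 35.1% ± 1.22 in P2WT, 37.1% ± 2.69 in P2H2KO and 36.1% ± 1.30 in P2H2WT (SD, n = 4).

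In the oxidative branch, G6pdx was at 460, 359, 697 and 342 CPM in P2KO replicates 1, 5, 6 and 9, and at 424, 416, 477 and 554 in P2WT replicates 3, 4, 7 and 10. In the other line it was at 462, 485, 706 and 700 in P2H2KO replicates 11, 12, 15 and 17, and at 491, 443, 553 and 644 in P2H2WT replicates 13, 14, 16 and 18. The deficient group overlapped its controls in both lines: P2KO held the lowest library of the 16 and also one near the top, and P2H2KO was split into a lower and an upper pair. The G6pdx log2 fold change was 0.00 (SE 0.22, 95% interval -0.50 to 0.51) in P2KO against P2WT and 0.14 (SE 0.17, -0.25 to 0.53) in P2H2KO against P2H2WT.

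Pgd followed G6pdx library by library. It was at 633, 466, 932 and 445 CPM in P2KO and 570, 565, 598 and 730 in P2WT, in the same order of replicates. It was at 649, 642, 943 and 966 CPM in P2H2KO and 672, 594, 727 and 870 in P2H2WT. The groups overlapped, with replicate 6 high in P2KO and replicates 15 and 17 high in P2H2KO. Its log2 fold change was 0.02 (SE 0.23, -0.50 to 0.54) in the P2 line and 0.16 (SE 0.17, -0.23 to 0.55) in the P2H2 line.

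Pgls, the step between those dehydrogenases, was at 75.1, 75.9, 78.5 and 92.0 CPM in P2KO and 89.1, 78.3, 88.4 and 84.6 in P2WT. It was at 79.1, 92.0, 84.7 and 94.6 CPM in P2H2KO and 96.3, 92.8, 96.0 and 82.9 in P2H2WT. P2KO replicate 9, the lowest library for G6pdx and Pgd, was the highest of its group for Pgls, whereas P2H2KO replicate 17 was high for all 3 genes. Its log2 fold change was -0.07 in both lines (SE 0.081 and 0.083), with intervals of -0.25 to 0.11 and -0.26 to 0.12. Of its exon bases 20.58% overlap Fam129c on the same strand, and reads there may not have been counted for Pgls.

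In the non-oxidative branch, Tkt was at 1246, 1038, 1466 and 1048 CPM in P2KO and 1154, 1164, 1204 and 1382 in P2WT. It was at 1274, 1167, 1527 and 1640 CPM in P2H2KO and 1247, 1161, 1264 and 1482 in P2H2WT. The same libraries stood high as for G6pdx and Pgd, and the groups overlapped. The Tkt log2 fold change was -0.02 (SE 0.13, -0.32 to 0.28) in the P2 line and 0.12 (SE 0.13, -0.17 to 0.42) in the P2H2 line.

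Taldo1 was at 617, 536, 722 and 535 CPM in P2KO and 588, 593, 579 and 712 in P2WT. It was at 668, 612, 726 and 836 CPM in P2H2KO and 667, 619, 700 and 779 in P2H2WT. One library of P2WT, replicate 10, stood above the other 3 controls of that line. The Taldo1 log2 fold change was -0.03 (SE 0.13, -0.31 to 0.26) in the P2 line and 0.04 (SE 0.12, -0.22 to 0.30) in the P2H2 line.

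Rpia, which makes ribose 5-phosphate, was the steadiest member, at 129, 124, 115 and 129 CPM in P2KO and 118, 124, 121 and 112 in P2WT. It was at 130, 123, 114 and 124 CPM in P2H2KO and 125, 124, 117 and 118 in P2H2WT. Its lowest libraries, P2WT replicate 10, P2H2KO replicate 15 and P2KO replicate 6, were among the highest for G6pdx. The Rpia log2 fold change was 0.07 (SE 0.062, -0.06 to 0.21) in the P2 line and 0.02 (SE 0.068, -0.13 to 0.18) in the P2H2 line.

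Rpe was at 81.5, 74.7, 92.7 and 65.6 CPM in P2KO and 80.1, 77.2, 81.0 and 74.6 in P2WT. It was at 81.6, 78.4, 84.1 and 95.4 CPM in P2H2KO and 85.3, 82.5, 87.3 and 94.4 in P2H2WT. P2KO held both its lowest library and one of its highest. The Rpe log2 fold change was 0.02 (SE 0.10, -0.21 to 0.25) in the P2 line and -0.04 (SE 0.078, -0.22 to 0.13) in the P2H2 line. Of the Rpe exon bases 17.92% overlap Kansl1l on the opposite strand, and of the G6pdx exon bases 13.57% overlap Ikbkg on the opposite strand. The strand setting of the counting is not given in the sources used here.

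**Figure D1:**
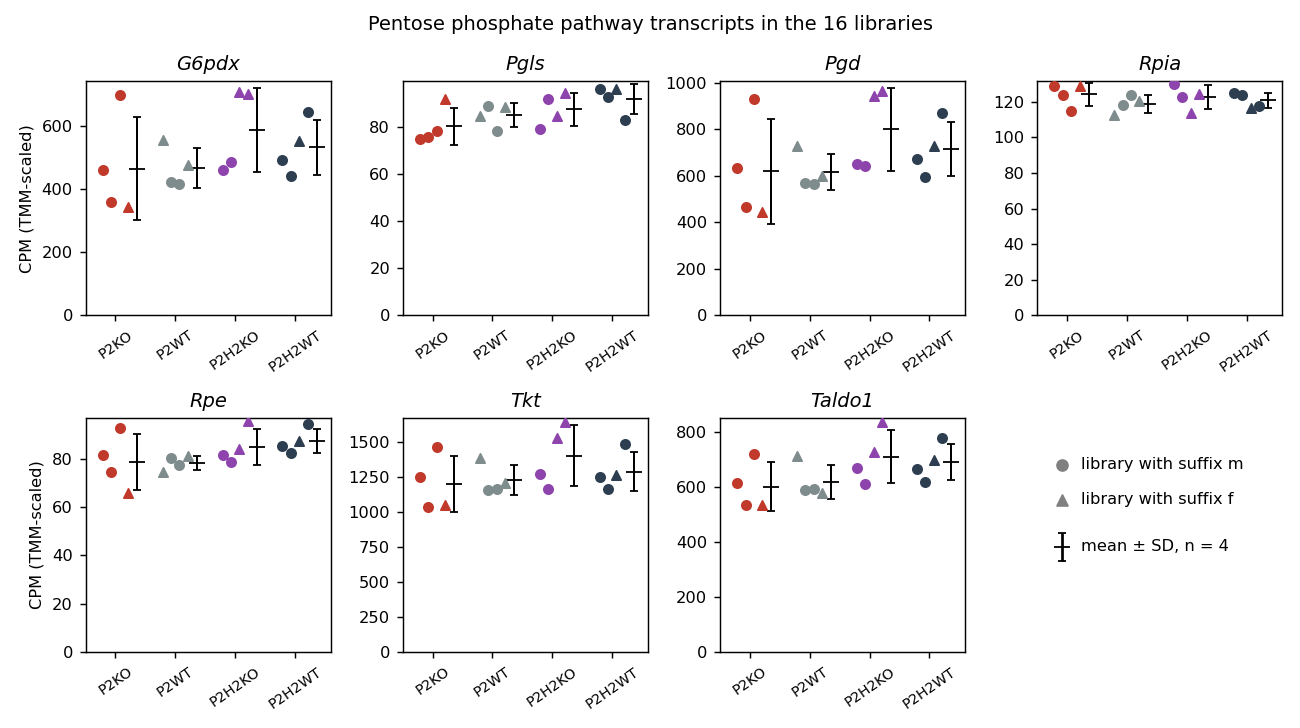
CPM of the 7 transcripts in each of the 16 libraries, on linear axes from 0, with circles for libraries whose title ends in m, triangles for f, and bars for the mean and SD of 4 libraries. In every panel the deficient group overlaps its controls, and in P2KO G6pdx and Pgd run from 342 to 697 and from 445 to 932 CPM.

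None of the 7 transcripts passed the test for a difference between genotypes. In P2KO against P2WT, 0 of 7 had an adjusted p under 0.05 by edgeR's quasi-likelihood test with Benjamini-Hochberg adjustment over all genes, against 0.0437% of 13734 genes tested. At an unadjusted p under 0.05 the count was again 0 of 7, against 3.49% of all genes, and DESeq2 called 0 of 7. In P2H2KO against P2H2WT, 0 of 7 were called, against 0.0744% of 13435 genes, with 0 of 7 at an unadjusted p under 0.05 (2.63% of all genes) and 0 of 7 by DESeq2. With so few genes called in either line, a count of 0 of 7 was also the background. Without P2H2WT replicate 13 the P2H2 line had 6 genes called in place of 10, and still 0 of 7 members. The members' log2 fold changes had a median of 0.00 in the P2 line and 0.04 in the P2H2 line, against 0.02 and 0.00 over all genes. In neither line did any member separate the groups, whereas 2.25% and 1.71% of all genes did.

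The intervals give the sizes of change that the libraries did not exclude. In the P2 line the widest interval was that of Pgd, whose bounds of -0.50 and 0.54 correspond to 0.707-fold and 1.46-fold. The narrowest was that of Rpia, from 0.956-fold to 1.16-fold. Single libraries moved the estimates within these intervals. Without P2KO replicate 6 the log2 fold changes of G6pdx and Pgd were -0.26 (SE 0.13) and -0.25 (SE 0.14), and without P2KO replicate 9 they were 0.12 (SE 0.21) and 0.14 (SE 0.22). Averaged over both lines with all 16 libraries, the estimates ran from -0.08 for Pgls to 0.08 for Pgd, with interval bounds from -0.25 to 0.41 across the 7 genes. In that average 0 of 7 were called, against 0.17% of 14080 genes, with 0 of 7 also at an unadjusted p under 0.05 (3.72% of all genes) and by DESeq2. Without P2WT replicate 4 the average had 15 genes called in place of 24, and 0 of 7 members.

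The effect in the P2 line minus that in the P2H2 line was tested directly, as this contrast addresses the part of a PHD2 effect that would depend on HIF2α. For the 7 members it lay between -0.15 (Pgd, SE 0.31, -0.80 to 0.50) and 0.05 (Rpe, SE 0.13, -0.23 to 0.32). By edgeR's test 0 of 7 were called, against 0% of 14080 genes, with 0 of 7 at an unadjusted p under 0.05 (1.51% of all genes). DESeq2 also called 0 of 7. The interval for G6pdx reached from -0.79 to 0.49, so differences between the lines within those bounds were not excluded with 4 libraries a group.

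Among the glycolytic genes next to the pathway, 3 were called in both lines. The list of 11 genes for the steps that share its intermediates held hexokinases (Hk1, Hk2, Hk3), Gpi1, phosphofructokinases (Pfkl, Pfkp, Pfkm), aldolases (Aldoa, Aldoc), Tpi1 and Gapdh. Of these 11, 3 were called higher in both lines and 0 were called lower. Of all genes tested, 0.0437% were called in the P2 line and 0.0744% in the P2H2 line. Pfkl, the liver-type phosphofructokinase subunit, was at 58.2 ± 2.56 CPM in P2WT and rose to 97.0 ± 4.68 in P2KO (SD, n = 4). It was at 57.4 ± 2.67 CPM in P2H2WT and rose to 108 ± 9.22 in P2H2KO. The Pfkl log2 fold change was 0.75 (SE 0.061, edgeR adjusted p = 0.00198) in the P2 line and in the P2H2 line 0.92 (SE 0.076, adjusted p = 0.00233). Tpi1, triose-phosphate isomerase, rose by 0.70 (SE 0.072, edgeR adjusted p = 0.0105) and 0.83 (SE 0.078, adjusted p = 0.00385). Aldoc, the brain-type aldolase, rose from 1.97 to 5.61 CPM and from 1.94 to 6.77 CPM, a log2 change of 1.52 (edgeR adjusted p = 0.00104) and 1.80 (adjusted p = 0.0106). The median of the list was 0.17 in the P2 line and 0.38 in the P2H2 line. Aldoa at 0.44 and 0.60 and Gpi1 at 0.02 and 0.18 did not pass the test. The Aldoa intervals nevertheless excluded 0 in both lines (0.07 to 0.80 and 0.27 to 0.94). In the P2H2 line every deficient library was above every control library for Aldoa and for Gapdh, where 1.71% of all genes separated the groups. In the P2 line both genes overlapped, and Gpi1 overlapped in both lines.

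**Figure D2:**
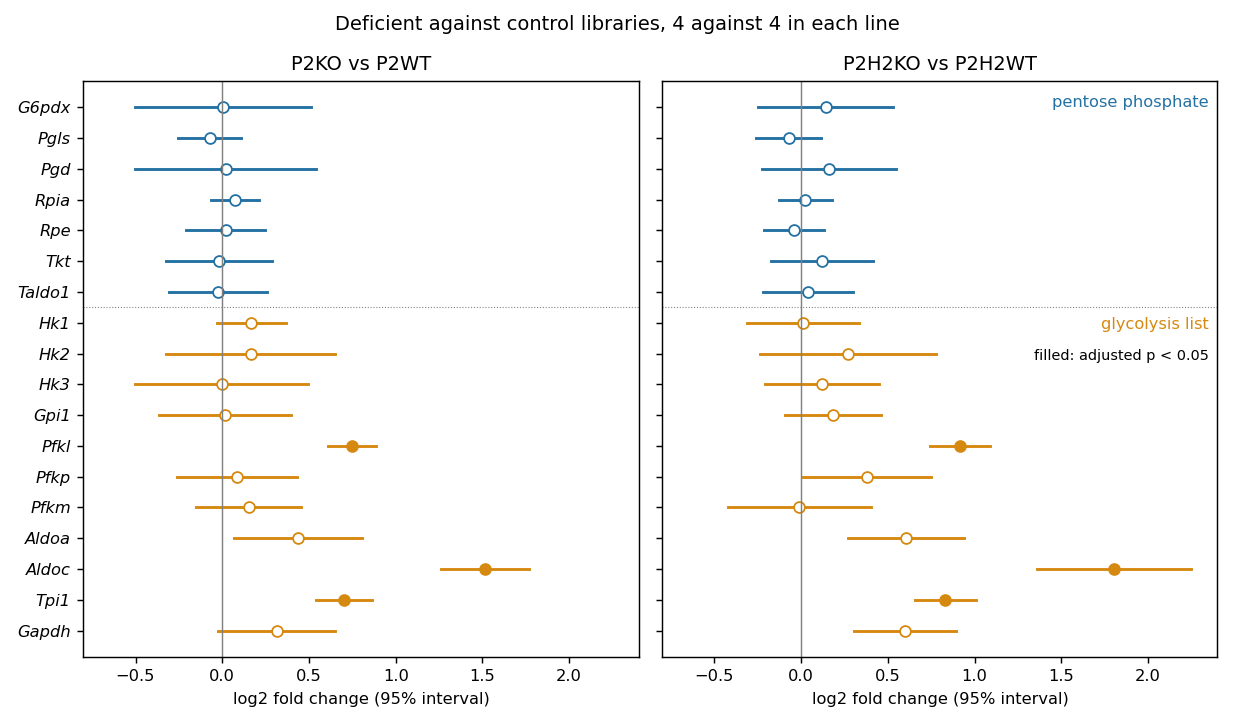
Log2 fold changes with 95% intervals of the 7 pathway transcripts (blue) and the 11 glycolytic transcripts (orange) in P2KO against P2WT (left) and P2H2KO against P2H2WT (right), with filled points for an adjusted p under 0.05. All 7 pathway intervals include 0 in both lines, and only the points of Pfkl, Aldoc and Tpi1 are filled.

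Each branch point was paired with 1 glycolytic gene that uses the same intermediate. Pfkl and Tpi1 were taken because they had been called. Other genes of the list use these intermediates too and were not called: the log2 fold changes in the P2 and P2H2 lines were 0.08 and 0.38 for Pfkp, 0.15 and -0.01 for Pfkm, and 0.31 and 0.60 for Gapdh. No ratio to these genes was tested, so the ratios describe the chosen pairs only. These ratios of CPM within a library were chosen after the values had been seen, so their p-values support no independent claim, and the test was an exact permutation test of 4 against 4, two-sided, for which 0.0286 is the smallest possible p. At glucose 6-phosphate, the ratio of G6pdx to Gpi1 was 0.556 ± 0.0635 in P2KO and 0.572 ± 0.0103 in P2WT (SD, n = 4, exact p = 0.571). It was 0.586 ± 0.0530 in P2H2KO and 0.607 ± 0.0433 in P2H2WT (exact p = 0.543), so it overlapped in both lines. At fructose 6-phosphate, the ratio of Tkt to Pfkl was 12.3 ± 1.62 in P2KO and 21.1 ± 2.56 in P2WT, and 13.03 ± 2.44 in P2H2KO and 22.5 ± 2.42 in P2H2WT (SD, n = 4, exact p = 0.0286 in each line). At glyceraldehyde 3-phosphate, the ratio of Taldo1 to Tpi1 was 2.46 ± 0.214 in P2KO and 4.09 ± 0.477 in P2WT, and 2.52 ± 0.303 in P2H2KO and 4.36 ± 0.365 in P2H2WT (exact p = 0.0286 in each line). In the Tkt and Taldo1 ratios every deficient library was below every control library of its line, and adjusted over the 6 tests the p of these 4 was 0.0429. The log2 differences, -0.78 and -0.80 for Tkt to Pfkl and -0.73 and -0.80 for Taldo1 to Tpi1, restate the rise of Pfkl and Tpi1.

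No other gene list around the pathway held a gene that passed the test between genotypes. With 0.0437% of all genes called in the P2 line and 0.0744% in the P2H2 line, a count of 0 was also the background for these lists. Of the 14 genes of side reactions and ribose use 12 were tested and 0 were called in either line, with medians of -0.05 and -0.06. Prps1 and Prps1l3, which turn ribose 5-phosphate into phosphoribosyl pyrophosphate, were the highest of the list per kilobase at 21.7 and 23.9 CPM, with log2 fold changes from -0.08 to 0.09. Prps1l3 is a close copy of Prps1, so reads may be split between them. Dera, deoxyribose-phosphate aldolase, was at -0.07 and -0.15, and Prpsap1 at -0.01 and -0.12.

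The other sources of NADPH had 10 of 13 genes tested and 0 called. Nadk, the kinase that makes NADP, was the highest at 102 CPM per kilobase, with log2 fold changes of -0.08 and 0.06. The isocitrate dehydrogenases were at -0.18 and 0.13 for the cytosolic Idh1 and at -0.14 and -0.02 for the mitochondrial Idh2, and the transhydrogenase Nnt at -0.04 and 0.08. Of the Nnt exon bases 47.45% overlap another annotated entry of the same name and strand, and reads there may not have been counted. The phagocyte oxidase, which consumes NADPH, had 6 of 6 genes tested and 0 called. Its membrane subunits Cyba and Cybb were at 390 and 339 CPM per kilobase, above the level of Taldo1 by merged exons. Cybb was at -0.06 and 0.13, Cyba at -0.10 and 0.02, Ncf1 at 0.01 and 0.14, and Ncf4 at 0.00 and 0.22.

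Of the 19 genes of the glutathione and thioredoxin systems with NRF2, all were tested and 0 were called. Gpx1, glutathione peroxidase, was at 0.01 and -0.16, Txn1, thioredoxin, at 0.00 and 0.07, and Prdx1, a peroxiredoxin, at -0.11 and -0.13. Hmox1, heme oxygenase, had the lowest average over both lines, at -0.31 (SE 0.14, unadjusted p = 0.0342, edgeR adjusted p = 0.9998). All 15 genes of purine and pyrimidine synthesis and salvage were tested and 0 were called, with Paics at 0.00 and -0.02, Dhodh at -0.10 and -0.07, and Hprt at 0.10 and 0.01. Adjusted p was 0.9999 or more for these genes in both lines.

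Of the related genes, H6pd had as many reads as the lower members and the others had few. H6pd, the enzyme of the endoplasmic reticulum that carries out the first oxidative steps, had 1658 to 3177 counts a library. Its mean was 80.3 CPM, close to the 82.3 of Rpe, and 15.3 CPM per kilobase, below the mean of every member. The H6pd log2 fold change was 0.00 (SE 0.15) in the P2 line and in the other line 0.16 (SE 0.17). G6pd2, a retrocopy 93.2% identical to G6pdx over 2332 bases, had 5 to 20 counts a library, and its CPM was 0.0819% of that of G6pdx. Tktl1 had 0 to 5 counts and Tktl2 had 0 counts in all 16 libraries. A Taldo1 pseudogene copy, Gm17823, 94.7% identical over 923 bases, was not analysed here.

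Among libraries of the same group, 4 members moved as a block with the granule transcripts of maturing neutrophils. For each library the mean log2 CPM of Ltf, Camp, Ngp, Lcn2, Chil3 and Mmp8, proteins of the late granules, was taken as a late granule score, and that of 10 erythroid genes as an erythroid score. Members and scores were centred on their group means, and p-values came from 100000 permutations within groups, adjusted over 35 relations among members and scores. These relations were chosen after the values had been seen, and all quantities of a library share its normalisation. The share of all genes with such r was not computed, so the relations are not shown to be particular to the pathway. Genes outside it were tied as closely, such as Scp2 with G6pdx (r = 0.993) and Gabarap with Taldo1 (r = 0.987). Fewer cells of a type and less RNA per cell cannot be told apart in these bulk libraries.

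Taldo1 followed the late granule score most closely (Pearson r = 0.98, Spearman rho = 0.99, n = 16, permutation adjusted p = 0.0005 for r and 0.0007 for rho). Tkt had r = 0.97 and rho = 0.96 (n = 16, permutation adjusted p = 0.000656 and 0.00075), Pgd r = 0.97 and rho = 0.96 (adjusted p = 0.000778 and 0.000831), and G6pdx r = 0.94 and rho = 0.92 (adjusted p = 0.00127 and 0.00159). Without the 2 libraries farthest from the median score, r was 0.97 for Taldo1, 0.96 for Tkt, 0.94 for Pgd and 0.90 for G6pdx. Within the P2 line r ran from 0.96 to 0.99 for these 4 genes and within the P2H2 line from 0.91 to 0.99. Late granule transcripts themselves took from 2.02% of CPM, in P2KO replicate 9, to 4.94%, in P2H2KO replicate 17.

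Over all 16 libraries Rpe had a lower r with the score (r = 0.79, rho = 0.74, n = 16, permutation adjusted p = 0.0115 and 0.0243), and its r was 0.58 without the 2 farthest libraries. Within the lines its r was 0.71 in the P2 line and 0.95 in the P2H2 line, the latter within the range of the 4 genes above. Pgls passed no test against it (r = -0.23, rho = -0.20, permutation adjusted p = 0.605 and 0.609). Rpia had r = -0.63 and rho = -0.55, with permutation adjusted p = 0.0539 and 0.103.

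**Figure D3:**
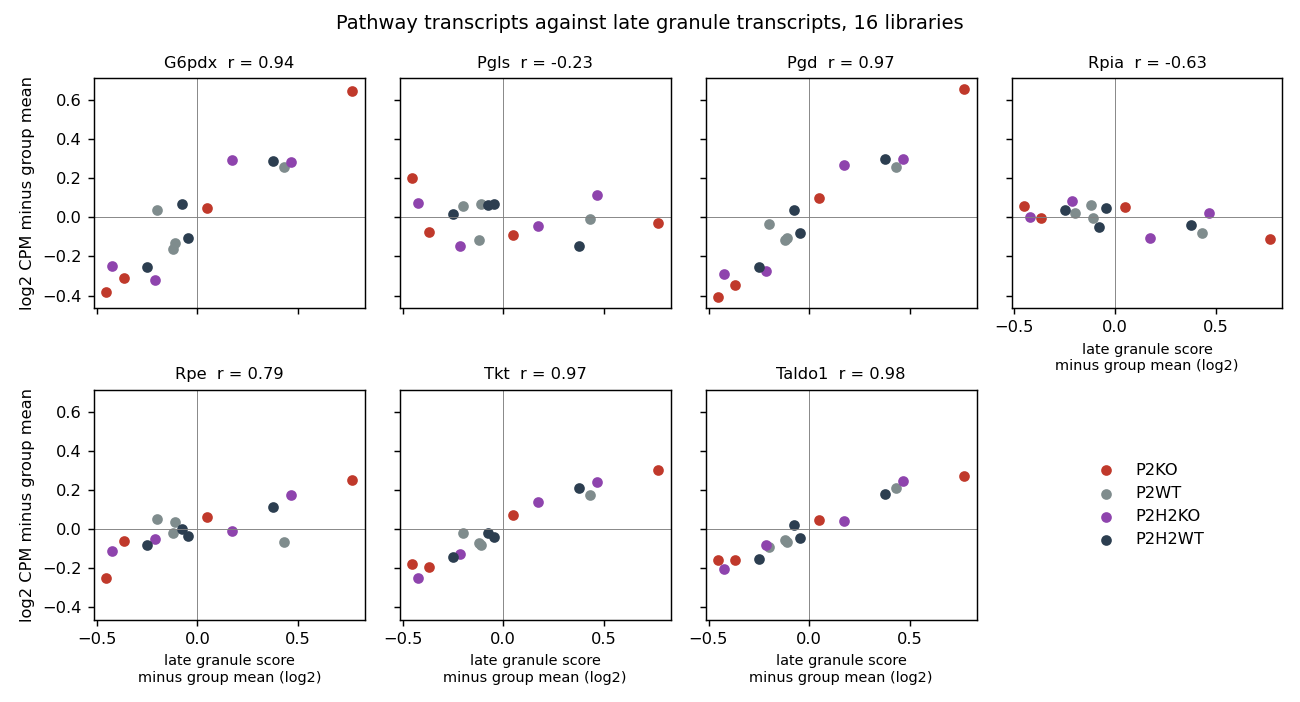
Log2 CPM of each member against the late granule score, both as differences from the group mean (log2), with 1 point per library coloured by group and Pearson r above each panel. The points of G6pdx, Pgd, Tkt and Taldo1 rise along a line with P2KO replicate 6 at the upper end, those of Pgls scatter around 0, and those of Rpia fall slightly.

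Against the erythroid score the signs were reversed for all members but Pgls. The centred scores themselves had opposite signs in every library but P2KO replicate 1, P2WT replicate 7 and P2H2WT replicate 16. In P2KO replicate 6, for example, the late granule score was 0.77 and the erythroid score -0.54. The relations to the erythroid score are therefore not separate from those to the late granule score, and the relation between the scores was not tested. G6pdx was inversely related to it (r = -0.86, rho = -0.88, n = 16, permutation adjusted p = 0.0005 and 0.0007). So were Pgd (r = -0.81, rho = -0.80, adjusted p = 0.00213 and 0.00159) and Tkt (r = -0.74, rho = -0.77, adjusted p = 0.0155 and 0.00723). Rpia rose with it (r = 0.86, rho = 0.77, n = 16, permutation adjusted p = 0.00361 and 0.00668). Taldo1 (r = -0.63, adjusted p = 0.0539, rho = -0.64, adjusted p = 0.035) and Rpe (r = -0.55, adjusted p = 0.124, rho = -0.62, adjusted p = 0.0377) passed by rho and not by r in these permutation tests. Pgls again passed no test (r = -0.05, rho = -0.04, permutation adjusted p = 0.88 and 0.927). Without the 2 libraries farthest from the median score r was -0.80 for G6pdx, -0.72 for Pgd, -0.65 for Tkt and 0.71 for Rpia. Within the P2 and P2H2 lines r was -0.89 and -0.87 for G6pdx and 0.78 and 0.94 for Rpia.

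Among the members, the closest pair was G6pdx and Pgd (r = 0.99, rho = 0.97, n = 16, permutation adjusted p = 0.0005 and 0.0007), the NADPH-forming dehydrogenases. Tkt and Taldo1, the enzymes of the carbon exchange, followed at r = 0.97 and rho = 0.96, with the same permutation adjusted p. Across the branches Pgd and Tkt had r = 0.97 and rho = 0.98, again with the same values. Rpia was opposed to G6pdx (r = -0.76, rho = -0.72, n = 16, permutation adjusted p = 0.00941 and 0.0156), and r was -0.59 without the 2 farthest libraries. Pgls passed no test against another member, with r from -0.29 to 0.05 and permutation adjusted p of 0.522 or more. The oxidative branch therefore held both a pair of closely tied genes and a gene outside the block.

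**Figure D4:**
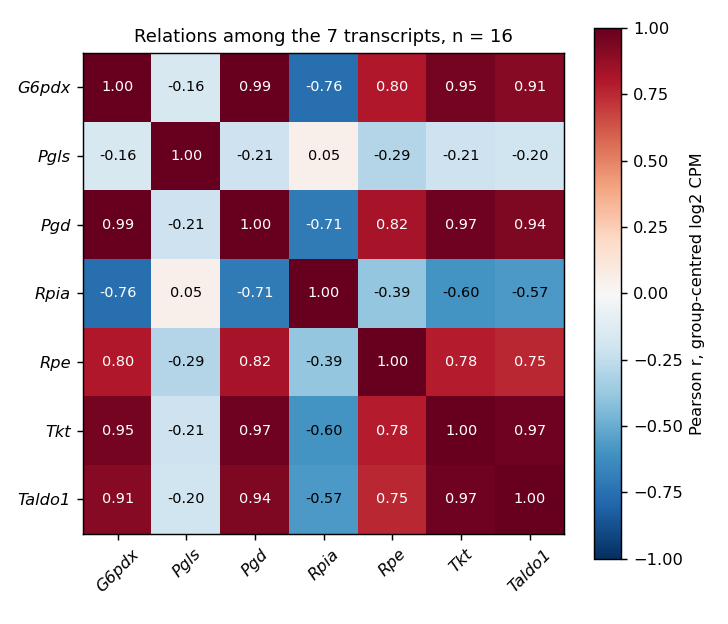
Pearson r between each pair of members over 16 libraries, from log2 CPM centred on group means, on a colour scale from -1 (blue) to 1 (red). G6pdx, Pgd, Tkt and Taldo1 form a red block with r of 0.91 to 0.99, Rpe joins it at 0.75 to 0.82, Rpia is blue against it and Pgls is pale throughout.

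Each member was also set against 9484 protein-coding genes with a mean of at least 5 CPM, and the genes of highest r are given as a description. For G6pdx these were Scp2 (0.993) and Pgd (0.993), and for Pgd G6pdx (0.993) and S100a6 (0.992). For Tkt they were Sqor (0.990) and Prdx5 (0.990), and for Taldo1 Gabarap (0.987) and Ccno (0.978). For Rpia they were the splicing gene Phf5a (0.944) and Cdk1 (0.936), the kinase of mitosis. Rpe was closest to Msantd3 (0.927) and Ube2d3 (0.925), and Pgls to N4bp3 (0.887) and Acsf2 (0.843). All r are over the same 16 centred libraries.

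When both marker scores, late granule and erythroid, entered the fit, the intervals of all members narrowed in both lines and no call changed. For G6pdx in the P2 line the SE fell from 0.22 to 0.047 and the estimate was 0.05 (95% interval -0.06 to 0.15). In the P2H2 line its SE fell from 0.17 to 0.046 and its estimate from 0.14 to 0.01 (-0.10 to 0.11). Pgd was at 0.06 (-0.05 to 0.17) and 0.04 (-0.06 to 0.13), Tkt at 0.02 (-0.07 to 0.11) and 0.06 (-0.03 to 0.15), and Taldo1 at 0.01 (-0.07 to 0.10) and 0.00 (-0.10 to 0.11). For Pgls the P2 line gave an SE of 0.062 in place of 0.081, and the P2H2 line 0.081 in place of 0.083. In the average of both lines Rpia had the smallest p, at 0.05 (SE 0.025, unadjusted p = 0.0458, edgeR adjusted p = 0.544). The scores were measured in the same libraries and could themselves respond to genotype, which was not tested here.

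**Figure D5:**
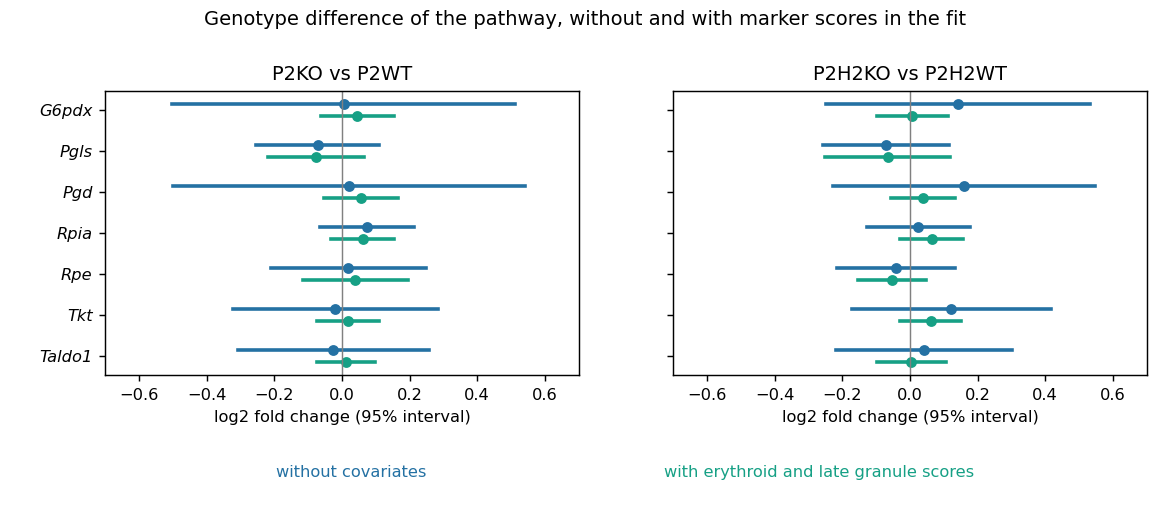
Log2 fold changes with 95% intervals of the 7 transcripts in both lines, without covariates (blue) and with both marker scores in the fit (green). The green intervals of G6pdx and Pgd stay within -0.10 and 0.17, and all green intervals include 0.

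The wild-type groups of both lines were compared as a gauge of how far libraries differ without a labelled deletion, although Epas1 itself was 2.80-fold higher in P2WT. All 7 members were lower in P2WT than in P2H2WT, with log2 differences from -0.22 (Pgd, SE 0.12) to -0.03 (Rpia, SE 0.059) and a median of -0.16, against -0.01 over all genes. G6pdx, Pgd, Tkt and Taldo1 moved together between libraries, so these are not 7 separate results, and the share of all genes that were lower was not computed. All 6 oxidase genes were lower too (median -0.14). Of the other NADPH sources 5 of 10 tested genes were higher, and of the glycolysis list 5 of 11. The remaining lists were mostly lower. Higher were 1 of 12 genes of side reactions and ribose use, 5 of 19 of the glutathione and thioredoxin list, and 4 of 15 of purine and pyrimidine synthesis. A lower level in P2WT was therefore not particular to the members and the oxidase. By edgeR's test 0 of 7 were called, against 1.22% of 13593 genes, and DESeq2 called 0 of 7. Rpe alone had an unadjusted p under 0.05 (log2 difference -0.16, SE 0.059, edgeR adjusted p = 0.315), where 11.4% of all genes did. Rpe was also the only member without overlap, at 74.6 to 81.0 CPM in P2WT and 82.5 to 94.4 in P2H2WT, as were 7.81% of all genes. With the marker scores in the fit G6pdx was at -0.20 (edgeR adjusted p = 0.0934), Rpe at -0.23 (0.0934) and Pgd at -0.17 (0.112). The largest of the differences between the control groups, -0.22 for Pgd, exceeded in size the largest genotype estimate of a member within a line, 0.16 for Pgd. Without P2WT replicate 10 this comparison called 76 genes in place of 166, and still 0 of 7 members.

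G6pdx lies on the X chromosome, so libraries with the title suffix f (6) and m (10) were compared with the group in the model. G6pdx was 0.16 higher with suffix f on the log2 scale (SE 0.17, 95% interval -0.19 to 0.52, edgeR adjusted p = 0.621). With the marker scores in the fit the difference was 0.00 (SE 0.036, -0.07 to 0.08). Of the 7 members 0 were called, against 0.163% of 14080 genes, with 0 of 7 at an unadjusted p under 0.05 (17.5% of all genes) and 0 of 7 by DESeq2. Without P2KO replicate 9 this comparison called 1066 genes in place of 23, and still 0 of 7 members. The autosomal Pgd was at 0.12 (SE 0.17). For both genes the estimate was negative in the P2 line alone and positive in the P2H2 line alone. An effect of X linkage was not tested. The suffix is uneven over the groups, and the high libraries P2H2KO replicates 15 and 17 both carry f whereas replicates 11 and 12 carry m.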

How the data were processed

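RNA from 16 libraries was measured as read counts per Ensembl gene. The authors deposited raw counts in 1 table per mouse line, made with HTSeq on the mm10 build per the submitters' processing notes, and the aligner, annotation release, strand setting and tool versions are not given in the sources used here. The library titles gave each group and replicate number. Symbols and coordinates came from GENCODE M21 (GRCm38), which named 49326 of 49585 identifiers. The other 259 held 0.00714% of counts.

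Counts were tested with edgeR 4.0.16 in R 4.3.3 (filterByExpr, TMM factors, robust quasi-likelihood fit, 2-sided), with Benjamini-Hochberg adjustment over all genes tested and a threshold of 0.05. The genotype comparisons within a line used the 8 libraries of its table, and the contrasts over both lines and the suffix used all 16. Intervals are 95% intervals of the fit. CPM use TMM-scaled library sizes of all 16 libraries. The procedure was also run on simulated counts with 200 changed genes. Those counts were drawn gene by gene, without the spread between libraries that many genes share here, and no statement above rests on them. DESeq2 1.42.0 and the other settings of the closing section were alternatives. Scores are means of log2 CPM with a prior count of 2. Copies were sought with blastn 2.17.0 (at least 80% identity over at least 200 bases), and relations and exact tests used numpy 2.4.6 and scipy 1.17.1.

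The genes named are the 7 members, their copies, Egln1, Epas1 and, from each of 6 lists of 78 genes in all, those called, the pair of highest level per kilobase and the pair of smallest p in the average of both lines. For each member the pair of genes of highest r was added. The members and lists were chosen with earlier results of these data known. The ratios, the relations and the transcript lengths were added after seeing the data.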

Additional observations from a re-analysis of the deposited data

Results flagged for a closer look

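Taldo1 in P2WT replicate 10 was at 712.4 CPM, far from the other 3 libraries of its group: its gap to the nearest of them was 0.892 of the group's range, above Dixon's 95% critical value for 4 libraries. It was the only one of 28 groups of 4 values (7 members in 4 groups) to pass that limit, and chance alone passes about 1 group in 20. The same library was the highest of its group for G6pdx, Pgd and Tkt and in neutrophil markers (4.89% of CPM).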

How the results depend on the processing

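No member was called under any of the alternatives, in 805 member results over the 6 comparisons: 741 kept their sign, 64 turned it, 0 changed their side of the threshold, and the lowest adjusted p was 0.0934. No paired analysis was made, because every library has its own replicate number and these numbers give no pairing. The counts of genes called moved more than the members did. In P2KO against P2WT (6 called) DESeq2 called 23 and the fit with marker scores 24, and in P2H2KO against P2H2WT (10 called) these gave 42 and 22. In the average of both lines (24) they gave 65 and 75, and in the difference of the effects (0) DESeq2 and the marker scores gave 0, with 209 and 326 genes at an unadjusted p under 0.05. In P2WT against P2H2WT (166) a minimum of 10 counts in every library gave 87 and DESeq2 419. For the suffix (23), no filter gave 58, the minimum of 10 counts 9, DESeq2 435, the marker scores 130, the P2 line alone 9 and the P2H2 line alone 5. Leaving out 1 library at a time gave 4 to 6 genes in the P2 line, 6 to 9 in the P2H2 line (6 without P2H2WT replicate 13), 15 to 30 in the average (15 without P2WT replicate 4), 76 to 167 between the wild-type groups and 17 to 1066 for the suffix. Between the wild-type groups the counts fell to 76, 77, 96, 96 and 99 without P2WT replicates 10, 3, 4 and 7 and P2H2WT replicate 16. For the suffix they rose to 1066, 470 and 51 without P2KO replicate 9, P2KO replicate 6 and P2H2WT replicate 18. The cause was not tested.

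With all libraries kept, signs turned as follows. In the P2 line G6pdx was at -0.003703 with DESeq2-type size factors, -0.0103 with upper-quartile factors, -0.003333 without a filter, -0.003647 with DESeq2 and -0.01468 with the suffix as covariate, which also gave Pgd -0.01991 and Rpe -0.025. The marker scores gave Tkt 0.01792 and Taldo1 0.01247 there. In the P2H2 line the suffix gave Taldo1 -0.009701. In the difference of the effects Pgls was at 0.0003541 with upper-quartile factors and 0.03883 with the suffix, and the marker scores gave G6pdx 0.02796, Pgd 0.005006 and Rpia -0.008403. In the average Taldo1 was at -0.006585 without a filter and -0.00252 with the minimum of 10 counts. For the suffix, the marker scores gave Pgd -0.01858 and Rpia 0.01021, the P2 line alone G6pdx -0.05232, Pgd -0.1104, Rpia 0.001142, Tkt -0.01362 and Taldo1 -0.01823, and the P2H2 line alone Rpe 0.09174.

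Leaving out 1 library turned further signs. In the P2 line the ranges were -0.2598 to 0.1213 for G6pdx, -0.2471 to 0.1443 for Pgd and -0.0703 to 0.09247 for Rpe, from without P2KO replicate 6 to without P2KO replicate 9. They were -0.1303 to 0.04767 for Tkt and -0.1245 to 0.054 for Taldo1, from without P2KO replicate 6 to without P2WT replicate 10. In the P2H2 line they were -0.005644 to 0.06178 for Rpia and -0.04465 to 0.106 for Taldo1, the low values without P2H2KO replicates 11 and 17. In the difference they were -0.08291 to 0.03482 for Pgls and -0.04044 to 0.1258 for Rpe. In the average they were -0.0648 to 0.1343 for G6pdx, -0.04935 to 0.155 for Pgd, -0.06181 to 0.02785 for Rpe, -0.01031 to 0.08936 for Tkt and -0.04807 to 0.039 for Taldo1, the low values all without P2KO replicate 6. For the suffix Rpe ran from -0.06856 to 0.05929. The lowest count of a member in any library was 1709, and counting error was not separated from the spread between libraries.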
